A study of Mus musculus with 240 samples.

Results

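The glycine receptor subunits Glra1, Glra2, Glra3 and Glrb and the scaffold protein gephyrin (Gphn) were described across 8 inbred mouse strains and 3 brain regions. The 5 genes were found by symbol among the 55414 genes of the count table, 1 row each, and all 5 were also among the 14785 genes of the deposited log2 table, so that no member was lost to the filter on low counts. The strains are the founders of the Collaborative Cross, a panel of recombinant inbred mice. They were the laboratory strains A/J (AJ), C57BL/6J (B6) and 129S1/SvImJ (S129), NOD/LtJ (NOD) as a diabetic and NZO/HILtJ (NZO) as an obese strain, and the wild-derived strains WSB/EiJ (called WSB), PWK/PhJ (called PWK) and CAST/EiJ (called CAST). The study's paper writes the name of the NOD strain as NOD/ShiLtJ. From each strain, 3 males and 3 females were used, all naive, without ethanol or any other agent; the design text gives an age of 8 weeks and the study's methods an older range. The prelimbic cortex (PrL), the core of the nucleus accumbens (NAcc) and, from the amygdala, its central nucleus (CeA) were punched from the frozen brain of each of the 48 mice. B6 and PWK are the strains with high ethanol preference, and the mean of the other 6 strains, which have low preference, is called Low_Average. The groups are strains and not manipulated alleles, so that a strain stands for everything that differs between inbred lines, and no mouse here drank ethanol.

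RNA was sequenced as stranded poly(A) libraries. Reads of all strains were aligned to the same reference with a limit on mismatches. Loss of reads where the sequence of a strain differs from it was not tested. Of each resequenced library 1 run was used, which left 143 libraries, 6 for each strain and region apart from B6 in the NAcc, which had 5. Libraries held between 14942820 and 33951616 counts (median 24456928), and the medians for the CeA, NAcc and PrL were 24855569, 24818199 and 23392346. Levels are given as CPM, the count of a gene relative to the sum over the 14785 genes of its library, after scaling between libraries by trimmed means (TMM). Each library is a separate mouse within its region, whereas the 3 regions came from the same mice. As a check of the dissections, the summed CPM of 8 striatal neuron markers was 693 to 8020 in NAcc libraries and 162 to 1961 in PrL libraries, and the sum of 5 markers of pallial glutamatergic neurons was 1771 to 3174 in the PrL and 2.24 to 1386 in the NAcc. In the CeA the striatal sum ran from 317 to 8579 and the pallial sum from 20.1 to 2494, and the sum of 4 markers of the choroid plexus, a tissue of the ventricles, from 2.59 to 9242. Of 5 markers of central amygdala neurons, Prkcd was higher in the CeA (47.4 CPM) than in the NAcc (21.9 CPM) and Nts was alike in both (25.5 and 24.8 CPM). Wfs1 (530 and 669 CPM), Dlk1 (58.6 and 191 CPM) and Crh (4.87 and 7.68 CPM) were lower in the CeA than in the NAcc, so that these markers did not set the CeA apart. The striatal and pallial sums of the CeA and NAcc and the choroid sums of the CeA ranged widely among libraries. In bulk tissue, fewer cells of a type cannot be told apart from less RNA per cell.

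Glycine receptors are chloride channels of 5 subunits and mediate fast inhibition. The α subunits, encoded by Glra1, Glra2, Glra3 and Glra4, bind glycine, and α subunits can form channels alone or together with the β subunit, encoded by Glrb. The β subunit binds gephyrin, which holds glycine receptors, and also GABA-A receptors, at inhibitory synapses. The α1 subunit is known from the adult spinal cord and brainstem, the α2 subunit from the forebrain and from development, and glycine receptors of the forebrain are sensitive to ethanol and are known for tonic, extrasynaptic inhibition in the nucleus accumbens and amygdala.

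Glra2, which encodes the α2 subunit, was lower in the PrL than in the CeA and NAcc when averaged over the strains. The means of B6 ran the other way between the PrL (41.2 CPM) and the NAcc (27.7 CPM). In the CeA its level was 45.8 ± 12.5 CPM (SD, n = 48; lowest 24.2, median 42.6, highest 78.6), in the NAcc 42.2 ± 12.3 CPM (SD, n = 47; 21.7, 42.5 and 73.4), and in the PrL 25.2 ± 10.0 CPM (SD, n = 48; 7.95, 22.5 and 50.5). The ranges of the 3 regions overlapped. With mouse as a block, Glra2 was down-expressed in the PrL against the CeA (log2 fold change -0.92, SE 0.08, limma's moderated test, adjusted p = 1.24e-21) and against the NAcc (-0.79, SE 0.08, adjusted p = 3.47e-17). Between the NAcc and the CeA the difference of -0.14 (SE 0.07) did not pass the threshold (adjusted p = 0.069).

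Glra3, which encodes the α3 subunit, fell from the CeA to the NAcc to the PrL when averaged over the strains. Between the NAcc and the PrL, the means were higher in the PrL in AJ (13.4 and 19.2 CPM) and B6 (8.58 and 17.1 CPM). Its level was 36.6 ± 12.8 CPM in the CeA (SD, n = 48; lowest 11.0, median 35.5, highest 73.1), 22.6 ± 12.0 CPM in the NAcc (SD, n = 47; 4.10, 20.6 and 64.8) and 15.4 ± 6.00 CPM in the PrL (SD, n = 48; 1.42, 16.2 and 28.4). The ranges overlapped, and the spread within a region was wide. The log2 fold change was -0.82 for the NAcc against the CeA (SE 0.10, adjusted p = 8.91e-12), -1.31 for the PrL against the CeA (SE 0.11, adjusted p = 5.58e-20) and -0.49 for the PrL against the NAcc (SE 0.12, adjusted p = 0.000165). Within trays 1, 2 and 3 this last contrast was -0.80, -0.47 and -0.23 (adjusted p = 0.0051, 0.0764 and 0.301).

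Glra1, which encodes the α1 subunit, was low in the CeA and NAcc and close to the limit of detection in the PrL. It was counted 3 to 155 times per library in the CeA, 0 to 309 times in the NAcc and 0 to 32 times in the PrL. The mean was 2.34 ± 1.81 CPM in the CeA (SD, n = 48), 2.87 ± 2.86 CPM in the NAcc (SD, n = 47) and 0.390 ± 0.306 CPM in the PrL (SD, n = 48). No count was seen in 1 library of the NAcc and in 3 of the PrL, in which a count of 0 allows a level of up to 0.151 to 0.187 CPM, and 12 of the PrL libraries had at most 3 counts. Glra1 was down-expressed in the PrL against the CeA (-2.48, SE 0.39, adjusted p = 1.25e-08) and the NAcc (-2.34, SE 0.40, adjusted p = 1.03e-07). Between the NAcc and the CeA the log2 fold change was -0.14 (SE 0.27, adjusted p = 0.634), while the mean CPM was higher in the NAcc.

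Glrb, which encodes the β subunit, was highest in the PrL, unlike the α subunits. It averaged 225 ± 34.4 CPM in the PrL (SD, n = 48; lowest 155, median 227, highest 335), 189 ± 24.2 CPM in the CeA (SD, n = 48; 136, 190 and 236) and 176 ± 29.5 CPM in the NAcc (SD, n = 47; 110.1, 173 and 249). The PrL was up-expressed against the CeA by 0.25 (SE 0.03, adjusted p = 9.29e-11) and against the NAcc by 0.37 (SE 0.03, adjusted p = 1.33e-18) on the log2 scale, and the NAcc was down-expressed against the CeA (-0.12, SE 0.03, adjusted p = 0.00107).

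Gphn, which encodes gephyrin, was lower in the PrL and had the narrowest range of levels, the highest library being 1.37 to 1.54 times the lowest within a region. Its level was 93.2 ± 7.23 CPM in the CeA (SD, n = 48; lowest 77.3, median 92.9, highest 106), 91.1 ± 9.49 CPM in the NAcc (SD, n = 47; 75.0, 89.6 and 115) and 78.1 ± 6.29 CPM in the PrL (SD, n = 48; 67.3, 78.9 and 95.0). The PrL was lower than the CeA by a log2 fold change of -0.26 (SE 0.02, adjusted p = 1.64e-21) and lower than the NAcc by -0.22 (SE 0.02, adjusted p = 6.82e-18), whereas the NAcc and the CeA differed by -0.03 (SE 0.02, adjusted p = 0.167). Across the 3 contrasts, 2 of 5, 5 of 5 and 5 of 5 members were called for the NAcc against the CeA, the PrL against the CeA and the PrL against the NAcc, beside 69.8%, 74.4% and 82.8% of all genes. Most genes differed between these regions, and the counts of members called lay on both sides of that background.

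**Figure D1:**
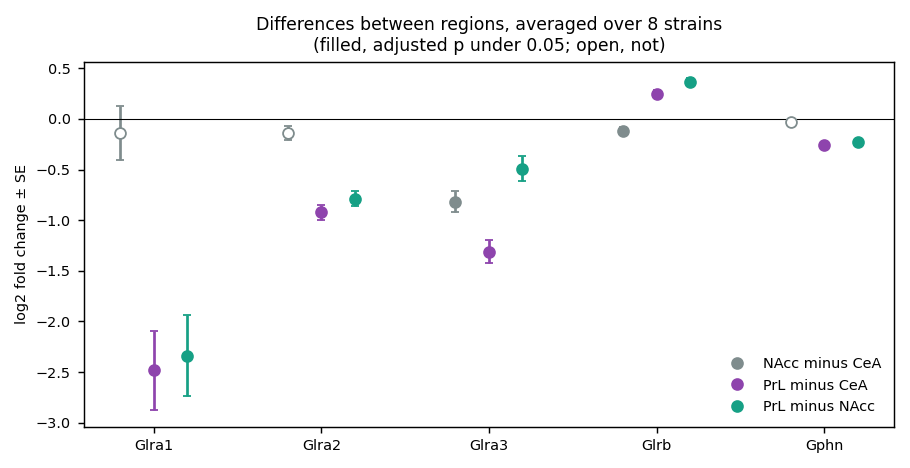
Log2 fold change between regions (y axis, ± SE from the model) for each gene (x axis), averaged over the 8 strains, with filled points for an adjusted p under 0.05. The 3 α subunits and Gphn lie below 0 in the PrL contrasts, down to -2.48 for Glra1, and Glrb lies above 0.

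To compare levels between genes, the mean CPM was divided by the length of all exons of the gene in kilobases, taken from an older annotation (GENCODE M21 on GRCm38) by gene identifier. The lengths were 2414 bases for Glra1 (chromosome 11), 3150 for Glra2 (chromosome X), 9208 for Glra3 (chromosome 8), 2010 for Glra4 (chromosome X), 4655 for Glrb (chromosome 3) and 3749 for Gphn (chromosome 12). Per kilobase, the mean level of Glra2 was 14.6, 13.4 and 8.01 CPM in the CeA, NAcc and PrL, and that of Glra3 was 3.97, 2.46 and 1.67 CPM. Glra1 was at 0.969, 1.19 and 0.161 CPM per kilobase. Glrb was at 40.6, 37.8 and 48.4 CPM per kilobase, and Gphn at 24.9, 24.3 and 20.8 CPM per kilobase. Of the members, Glrb was thus highest per length and Glra1 lowest in each region, and Glra2 was the highest of the α subunits. Glra4 encodes the α4 subunit and was too low for the deposited log2 table. It was at 0.777, 0.538 and 0.0699 CPM per kilobase, with no count in 17 of 48 PrL libraries, and was not tested.

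On this scale the sum of the 4 α messages was 20.3 ± 5.80 CPM per kilobase in the CeA (SD, n = 48), 17.6 ± 6.22 in the NAcc (SD, n = 47) and 9.91 ± 3.26 in the PrL (SD, n = 48). Glra2 made up 72.3% ± 5.85, 78.0% ± 7.46 and 79.3% ± 8.16 of the α sum (SD, same n), and Glra3 19.5% ± 4.24, 13.3% ± 3.65 and 18.2% ± 8.16. The mean ratio of Glrb to the α sum was 5.56 in the PrL, compared with 2.19 for the CeA and 2.39 for the NAcc. The PrL thus had the highest mean ratio over all strains, but not in B6, whose α sum was 10.3 CPM per kilobase in the NAcc and 15.2 in the PrL, with ratios of 3.72 and 2.96. All of these shares depend on the exon length that stands for each gene, since only counts per gene were given and isoforms could not be separated.

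The makeup of the α message in the PrL differed by strain. The share of Glra3 was 27.3% ± 4.70 in AJ (SD, n = 6; 22.4% to 33.2%) and 24.8% ± 4.57 in NOD (17.4% to 29.4%), and it was 12.3% ± 3.32 in B6 (8.01% to 16.0%), 9.37% ± 2.20 in CAST (7.26% to 13.3%) and 7.67% ± 4.51 in PWK (2.58% to 16.1%). The shares of AJ and NOD did not overlap those of B6, CAST or PWK. The low share of PWK came with less Glra3 and that of B6 with more Glra2, as the levels of each gene below show. The α sum in the PrL was 15.2 ± 2.60 CPM per kilobase in B6 and 7.09 ± 2.14 in S129 (SD, n = 6 each), and the ratio of Glrb to α was 2.96 ± 0.431 in B6 and 8.06 ± 3.79 in S129. No test was made of these shares.

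**Figure D2:**
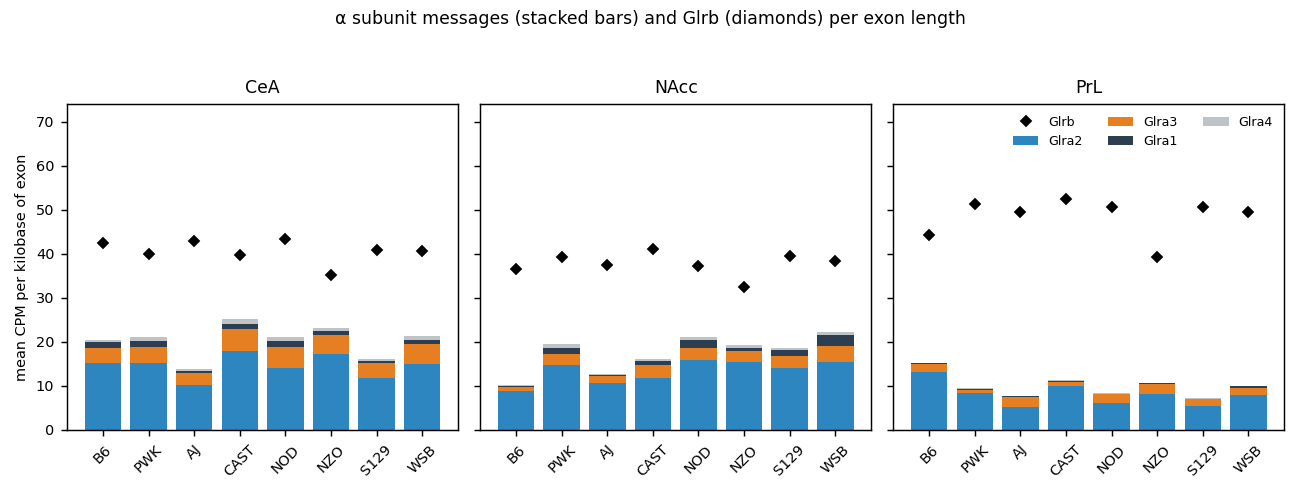
Mean CPM per kilobase of exon (y axis) of each strain (x axis) in the 3 regions, with stacked bars for the α subunits and diamonds for Glrb. In the PrL the bar of B6 is the tallest, at 15.2, that of S129 the shortest, at 7.09, and the Glrb diamonds lie above the bars in every group.

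Whether a member differed among strains at all was asked first, with 1 test over the 8 strains in each region. In the CeA, 4 of 5 members passed, beside 80.8% of all genes; in the NAcc, 3 of 5 passed beside 76.0%; and in the PrL, 5 of 5 passed beside 84.1%. Glra2 passed in the CeA, NAcc and PrL (adjusted p = 0.00629, 0.00504 and 2.37e-05 in limma's moderated F test), as did Glra3 (0.0159, 0.00314 and 7.86e-08) and Gphn (0.0145, 0.00152 and 0.0234). Glrb passed in the CeA and PrL (0.0153 and 0.000737) but not in the NAcc (0.201), and Glra1 passed in the PrL (5.53e-05) but not in the CeA (0.215) or the NAcc (0.162). Among the 28 contrasts of strains for each of 5 members, 21 of 140 were called in the CeA, 21 of 140 in the NAcc and 50 of 140 in the PrL, beside 28.9%, 26.0% and 33.1% of all contrasts of all genes. The median member was called in 5, 6 and 11 of its 28 contrasts in the CeA, NAcc and PrL, and the median gene in 7, 7 and 9. By limma, the share of called contrasts in the CeA and NAcc was below that of all genes. With edgeR, DESeq2 and sample weights more contrasts of members were called in the NAcc, and with sample weights in the CeA, as given below. No share of all genes is given for these fits.

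**Figure D3:**
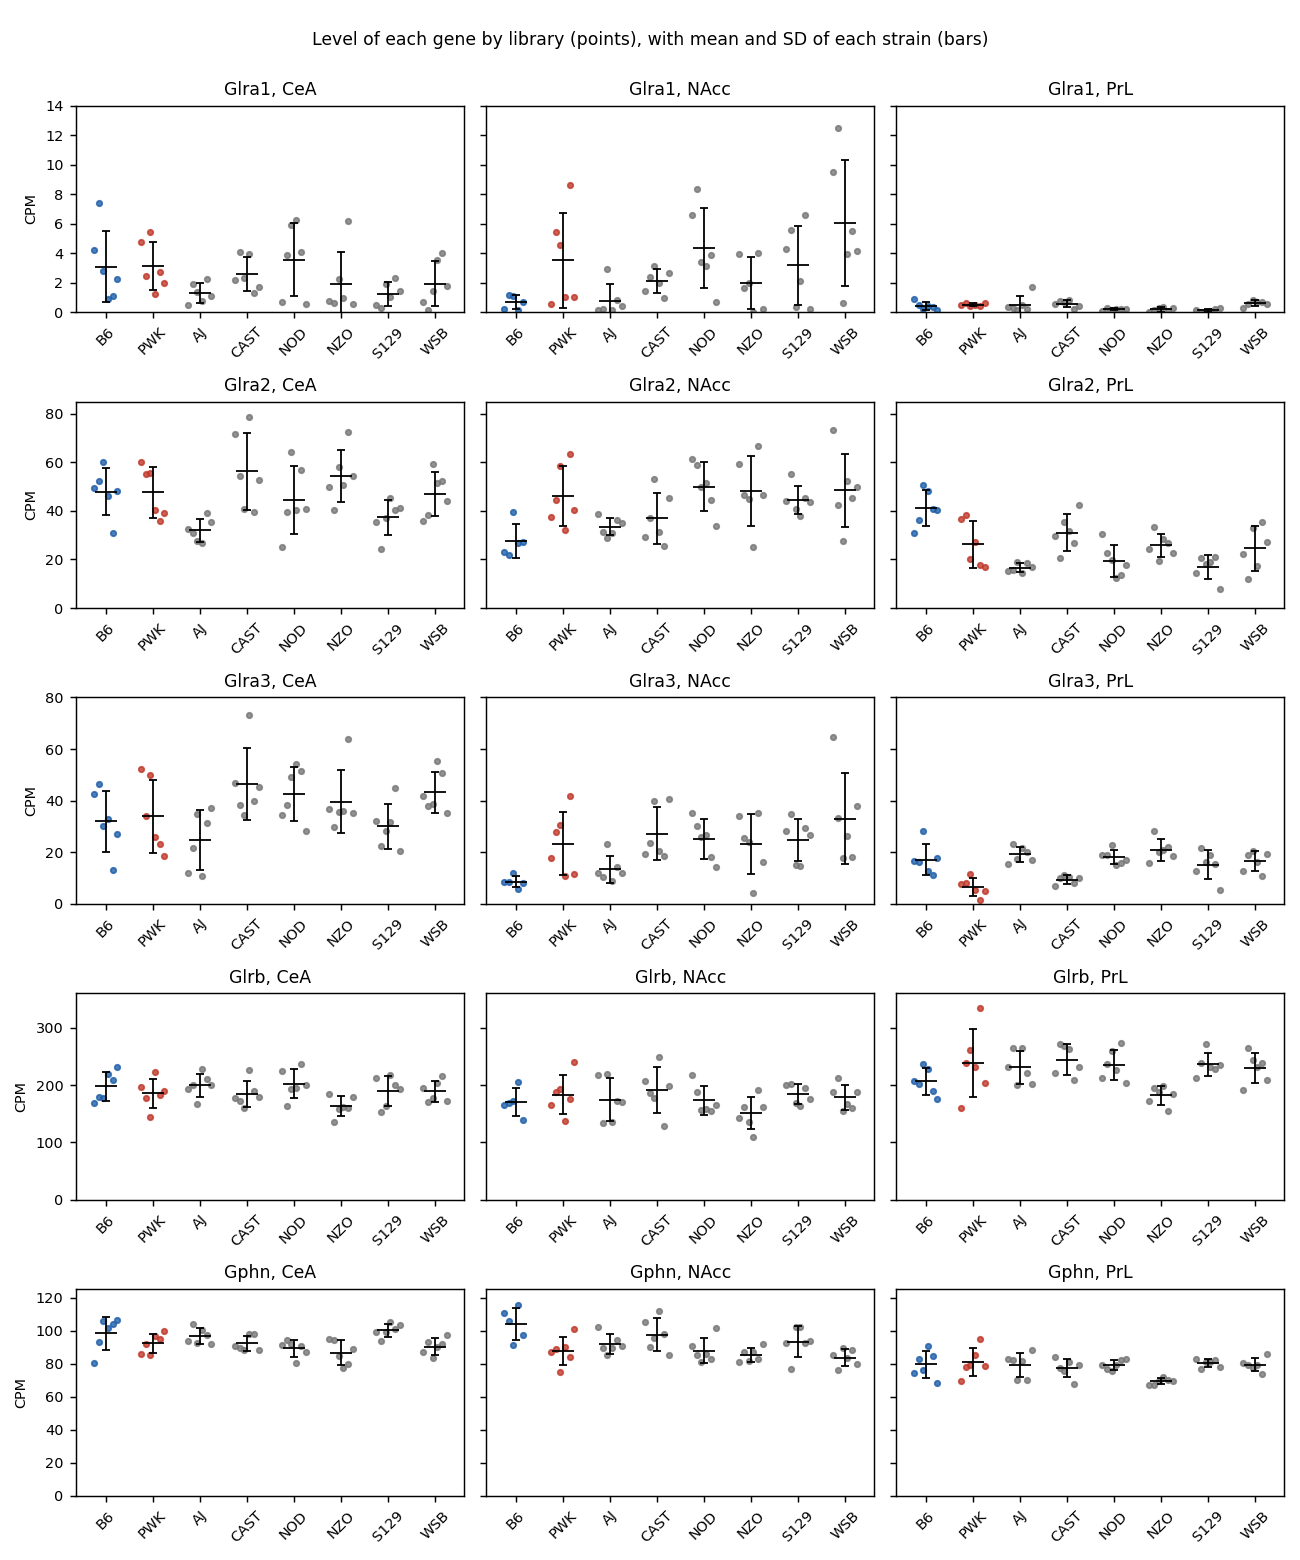
CPM (y axis, from 0, shared within a gene) of every library (points) by strain (x axis), with the mean and SD of the strain as bars, B6 in blue and PWK in red. In the PrL, Glra3 of PWK and CAST lies under that of AJ, NOD and NZO, Glra2 of B6 lies at 30.8 to 50.5, and the Gphn points of NZO lie close together at 67.3 to 72.0.

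Glra3 in the PrL had the clearest order of strains. The 6 PWK libraries were at 1.42, 4.82, 5.43, 7.88, 7.94 and 11.8 CPM (mean 6.55 ± 3.51 SD), and the 6 CAST libraries at 6.97, 7.98, 9.95, 10.1, 10.6 and 11.1 CPM (mean 9.45 ± 1.61 SD). The other 6 strains had means between 15.1 CPM in S129 and 21.0 CPM in NZO. All PWK and CAST libraries lay below every library of AJ, NOD and NZO, whereas a library of S129 (5.50 CPM) fell among those of PWK. From the highest to the lowest, the order was NZO, AJ, NOD, B6, WSB, S129, CAST and PWK. Neighbours in this order down to S129 did not pass the test, but S129 was above CAST (log2 fold change 0.62, SE 0.25, adjusted p = 0.0472) and CAST above PWK (0.76, SE 0.30, adjusted p = 0.0436).

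Glra3 was therefore a unique DEG of PWK in the PrL, which means that it was differentially expressed in the same direction in all 7 contrasts of PWK. The log2 fold change of PWK averaged -1.53 over the 7 contrasts, and the largest adjusted p was 0.0436. Of all genes, 4.78% were unique DEGs with lower expression in PWK in the PrL. Against Low_Average the log2 fold change was -1.52 (SE 0.24, adjusted p = 1.87e-06), a level 0.348 times that of the 6 strains. In the CeA and NAcc the same contrast was -0.15 (SE 0.21, adjusted p = 0.606) and -0.08 (SE 0.27, adjusted p = 0.844). Over 22 alternatives the NAcc contrast ran from -0.81 to 0.37. It was called in 1 of these, lower in PWK, with marker means as covariates (adjusted p = 0.0153), a fit chosen after seeing the data. In the CeA the PWK libraries ran from 18.7 to 52.2 CPM and in the NAcc from 10.7 to 41.7 CPM, within the ranges of the other strains.

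The call in all 7 contrasts was lost without PWK mouse 40, which had the lowest Glra3, and also without mouse 32 or 48 (largest adjusted p = 0.0591 and 0.0643). Without mouse 40, 6 of 7 contrasts were called (largest adjusted p = 0.297), and PWK differed from Low_Average by -1.12 (adjusted p = 3.09e-05). When each of the 6 PWK libraries was left out in turn, that contrast ran from -1.74 to -1.12. With edgeR's quasi-likelihood test 6 of 7 contrasts were called (largest adjusted p = 0.0694), and with DESeq2 7 of 7 (0.0478). In 6 of 7 it was called without a filter on low counts (0.0594), without the tray term (0.0539), with the other runs (0.0506), with the runs summed (0.137) and without the libraries that stood apart in a marker list (0.222). Within trays 1, 2 and 3, with 2 PWK libraries each, the contrast with Low_Average was -2.37 (adjusted p = 0.000145), -1.13 (0.0695) and -0.92 (0.102). In these trays, 7, 2 and 0 of the 7 contrasts of PWK were called.

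In the NAcc, Glra3 was lowest in B6. The 5 B6 libraries were at 5.91, 7.99, 8.57, 8.63 and 11.8 CPM (mean 8.58 ± 2.11 SD). Means of the other strains ran from 13.4 ± 5.15 CPM in AJ to 33.1 ± 17.5 CPM in WSB (SD, n = 6 each). Every B6 library lay below every library of WSB (17.8 to 64.8 CPM), CAST (18.6 to 40.5 CPM), S129 (14.6 to 34.8 CPM) and NOD (14.4 to 35.1 CPM). The B6 libraries overlapped those of AJ (8.77 to 23.2 CPM) and PWK (10.7 to 41.7 CPM), and 1 library of NZO was lower than all of B6, at 4.10 CPM. B6 was down-expressed in 6 of its 7 contrasts, all but that with AJ (adjusted p = 0.282). Against Low_Average the log2 fold change was -1.48 (SE 0.38, adjusted p = 0.00223), and -1.23, -0.79 and -2.01 within trays 1, 2 and 3 (adjusted p = 0.171, 0.818 and 0.0441). Tray 2 held 1 B6 library of the NAcc, mouse 41, which the model takes to vary like the other groups. With marker means as covariates, a fit chosen after seeing the data, the contrast of B6 with Low_Average was -0.83 (adjusted p = 0.0141). The markers that differed in B6 are given below. In the CeA Glra3 was lowest in AJ, at 24.7 ± 11.5 CPM (SD, n = 6), which was called lower in 4 of 7 contrasts.

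Glra2 in the PrL was highest in B6. The 6 B6 libraries were at 30.8, 36.4, 40.3, 40.9, 48.2 and 50.5 CPM (mean 41.2 ± 7.32 SD). CAST came next at 31.1 ± 7.49 CPM (lowest 20.6, median 30.6, highest 42.5), and the lowest means were 16.6 ± 1.84 CPM in AJ (14.5 to 19.0 CPM) and 16.9 ± 4.96 CPM in S129 (7.95 to 20.9 CPM). All B6 libraries lay above all libraries of AJ and S129. B6 was up-expressed in 6 of 7 contrasts, and that with CAST did not pass (adjusted p = 0.0991). Against Low_Average the log2 fold change of B6 was 0.95 (SE 0.16, adjusted p = 4.6e-06), a level 1.93 times that of the 6 strains, and within trays 1, 2 and 3 it was 0.79, 0.76 and 1.21 (adjusted p = 0.0204, 0.0914 and 0.025). No neighbours in the order of strains for Glra2 passed in any region.

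In the NAcc the sign was the opposite. The 5 B6 libraries were at 21.7, 23.0, 27.0, 27.3 and 39.4 CPM of Glra2 (mean 27.7 ± 6.99 SD), the lowest mean of the 8 strains, and the next was AJ at 33.5 ± 3.67 CPM. NOD had the highest mean, 49.9 ± 10.1 CPM (lowest 33.6, median 50.6, highest 61.5). B6 was called lower in 5 of 7 contrasts and was lower than Low_Average by a log2 fold change of -0.66 (SE 0.18, adjusted p = 0.00374), with -0.50, -0.37 and -0.99 within the trays (adjusted p = 0.287, 0.776 and 0.0367), of which tray 2 again rests on 1 B6 library. In the CeA the contrast of B6 with Low_Average was 0.11 (SE 0.15, adjusted p = 0.564). There AJ had the lowest Glra2, 32.0 ± 4.64 CPM (SD, n = 6), and was called lower in 5 of 7 contrasts. AJ thus had the lowest mean of both Glra2 and Glra3 in the CeA. AJ also had the highest striatal sum there, with a median of 4765 CPM (799 to 8579 CPM), against medians of 711 to 2742 CPM in the other strains. With marker means as covariates, a fit chosen after seeing the data, 4 of the 28 contrasts of strains were called for Glra2 in the CeA (against 7) and 2 for Glra3 (against 4).

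Whether strain differences depended on the region was tested as an interaction in 1 model over all libraries. The interaction passed for Glra2 (adjusted p = 1.25e-05) and Glra3 (adjusted p = 3.38e-06), beside 39.6% of all genes. It did not pass for Glra1 (adjusted p = 0.0592), Gphn (0.0614) or Glrb (0.604). With mouse as a fixed replicate block it passed for Glra1 (adjusted p = 0.018), as it did with the other runs (0.0441) and the runs summed (0.0288). Counted over all alternatives, the interaction passed in 5 of 14 for Glra1, 2 of 15 for Gphn and 1 of 15 for Glrb. For Glra2 and Glra3 it passed in 12 of 15 each.

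Glra1 in the PrL was called in 12 of 28 contrasts on very few counts. S129 had 14 counts in 6 libraries, at 0, 0, 0.0847, 0.121, 0.240 and 0.267 CPM, and NOD and NZO had 22 counts each. PWK had 8 to 11 counts in each library, at 0.401 to 0.611 CPM (mean 0.516 ± 0.0844 SD), and WSB had 75 counts in 6 libraries and the highest mean, 0.604 ± 0.203 CPM. All PWK libraries lay above all libraries of S129, NOD and NZO. S129 was called lower in 5 of its 7 contrasts. Against Low_Average, PWK was higher by 0.93 (SE 0.34, adjusted p = 0.0241), but the contrast did not pass with edgeR's quasi-likelihood test (0.75, adjusted p = 0.086), DESeq2 (0.79, adjusted p = 0.0743) or the other sequencing runs (0.27, adjusted p = 0.598). In the CeA and NAcc no contrast of strains was called for Glra1 by limma. At an unadjusted p under 0.05, limma gave 1 of 28 contrasts in the CeA and 5 of 28 in the NAcc, while edgeR called 0 and 8 and DESeq2 1 and 11 after adjustment. In the NAcc the range within a strain was wide, from 0.640 to 12.5 CPM in WSB and from 0.141 to 2.96 CPM in AJ.

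Glrb was lowest in NZO in each region, with 164 ± 17.4 CPM in the CeA, 151 ± 28.0 CPM in the NAcc and 182 ± 16.1 CPM in the PrL (SD, n = 6 each). The PrL libraries of NZO were at 155, 172, 185, 188, 195 and 199 CPM, while the highest mean, in CAST, was 244 ± 26.9 CPM (209 to 272 CPM), so that CAST and NZO did not overlap. NZO was called lower in 5 of 7 contrasts in the CeA, 1 of 7 in the NAcc and 6 of 7 in the PrL, where the exception was B6 (adjusted p = 0.123). The mean log2 fold change of NZO over the 7 contrasts was -0.24, -0.25 and -0.34 in the CeA, NAcc and PrL. Neither B6 nor PWK was called against Low_Average for Glrb in any region (smallest adjusted p = 0.129).

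Gphn differed by small amounts with small errors. In the PrL the 6 NZO libraries were at 67.3, 67.3, 69.4, 69.7, 70.2 and 72.0 CPM (mean 69.3 ± 1.82 SD), and the means of the other 7 strains lay between 77.4 CPM in CAST and 80.8 CPM in PWK. The lowest libraries of CAST (67.6 CPM), B6 (68.2 CPM), PWK (69.4 CPM) and AJ (69.7 CPM) fell within the range of NZO, whereas all those of S129 (76.9 to 82.9 CPM), NOD (75.2 to 82.5 CPM) and WSB (73.7 to 85.7 CPM) were higher. Gphn was a unique DEG of NZO in the PrL, with a mean log2 fold change of -0.19 and a largest adjusted p of 0.0399, where 0.501% of all genes were unique DEGs with lower expression in NZO. It was called in 7 of 7 contrasts with edgeR and with DESeq2 (largest adjusted p = 0.0367 and 0.0318), and in 6 of 7 when B6 mouse 25 was left out (0.0528). It was called in 6 of 7 without a filter on low counts (0.107) and with the other runs (0.0503). Without the libraries that stood apart in a marker list it was also called in 6 of 7 (0.0758), and with marker means as covariates in 5 of 7 (0.13). Within trays 1, 2 and 3 it was called in 1, 0 and 0 of 7 (largest adjusted p = 0.994, 0.696 and 0.386). In the NAcc the 5 B6 libraries were at 91.3, 97.5, 106, 111 and 115 CPM (mean 104 ± 9.79 SD), the highest mean, and B6 was above Low_Average by 0.21 (SE 0.05, adjusted p = 0.00217). That call was lost when the sixth library of B6, left out of the deposited log2 table, was added (0.12, adjusted p = 0.124). It was also lost with marker means as covariates (0.09, adjusted p = 0.152), and it passed in 17 of 22 alternatives. Within tray 1 the contrast was 0.19 (adjusted p = 0.425) and within tray 3 0.30 (adjusted p = 0.0925). In tray 2, with 1 B6 library, it was 0.07.

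B6 and PWK, the strains with high ethanol preference, were each compared with Low_Average. The p-value of such a contrast rests on the spread among mice within strains and not on that among strains. With a single strain set against Low_Average, it cannot tie a gene to preference. In B6, 0 of 5 members were called in the CeA, 3 of 5 in the NAcc (Glra2 and Glra3 lower, Gphn higher) and 1 of 5 in the PrL (Glra2 higher), beside 41.0%, 32.2% and 37.6% of all genes. In PWK, 0 of 5 were called in the CeA and NAcc and 2 of 5 in the PrL (Glra3 lower, Glra1 higher), beside 39.2%, 38.7% and 47.1%. Where limma called 0 members, none had an unadjusted p under 0.05 either, and neither edgeR nor DESeq2 called any, although edgeR gave 1 member in the CeA of B6 an unadjusted p under 0.05. In the NAcc of B6, edgeR and DESeq2 called 4 of 5 members. The added member was Glra1, with -2.02 (adjusted p = 0.0311) and -2.06 (adjusted p = 0.00415), against -1.48 by limma (SE 1.11, adjusted p = 0.304), and its 5 B6 libraries held 3 to 27 counts. The contrasts of B6 and PWK share the 6 strains of Low_Average. By limma no member was called in both in the same region, but with marker means as covariates Glra3 in the NAcc was called lower in B6 (-0.83, adjusted p = 0.0141) and in PWK (-0.54, adjusted p = 0.0153).

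**Figure D4:**
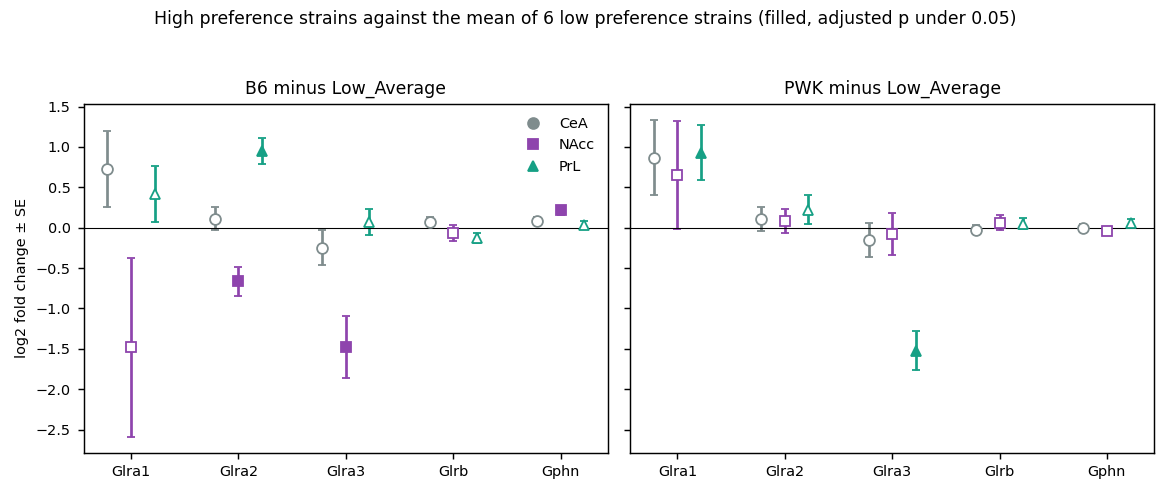
Log2 fold change ± SE (y axis) of B6 (left) and PWK (right) against Low_Average for each gene (x axis) in the CeA (circles), NAcc (squares) and PrL (triangles), filled for an adjusted p under 0.05. Glra2 of B6 is filled on both sides of 0 (-0.66 in the NAcc, 0.95 in the PrL), and Glra3 of PWK is filled in the PrL, at -1.52, and open in the CeA and NAcc.

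Libraries of a region differed in Glra3 along with their striatal marker message. In the NAcc, the mean log2 CPM of the striatal markers and log2 CPM of Glra3, both after strain, sex and tray were fitted, had a Pearson's r of -0.78 and a Spearman's rho of -0.82 over 47 libraries (permutation p = 1e-05 for each, the smallest that 100000 permutations can give, and 3e-05 after Benjamini-Hochberg adjustment over the 3 regions). Without the 2 libraries farthest from the median, r was -0.80. Within trays 1, 2 and 3, r was -0.68, -0.89 and -0.87. In the PrL, r was -0.69 and rho -0.40 over 48 libraries (adjusted permutation p = 4e-05 and 0.00467), but r was -0.39 without the 2 farthest libraries, PWK mouse 40 and B6 mouse 25, and -0.86, -0.25 and -0.83 within the trays. In the CeA, r was -0.49 and rho -0.46 (adjusted permutation p = 0.00044 and 0.00207), -0.40 without the 2 farthest libraries, and -0.73, -0.43 and -0.15 within the trays. Libraries with more striatal message had less Glra3 in each region. The relation was not particular to Glra3. In the NAcc, r with the striatal list was 0.73 for Gphn, -0.73 for Glra2, -0.65 for Glra1 and -0.38 for Glrb. Glra1 had an r of 0.77 with the diencephalic list there, and Glrb in the CeA one of -0.76 with the choroid list. The striatal list was not the one with the largest r in the CeA, where r with Glra3 was 0.55 for the diencephalic and 0.51 for the amygdala list. In the NAcc, r with Glra3 was 0.67 for the diencephalic, 0.59 for the amygdala, 0.65 for the oligodendrocyte and 0.70 for the astrocyte list. The PrL values for Glra3 were -0.59 for the GABAergic neuron, 0.45 for the pallial, 0.39 for the diencephalic and -0.36 for the oligodendrocyte list. These further values are descriptions, and the part of any cell type was not tested. The permutation p-values do not allow for the choice of Glra3 and the striatal list among the 5 members and 9 marker lists.

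**Figure D5:**
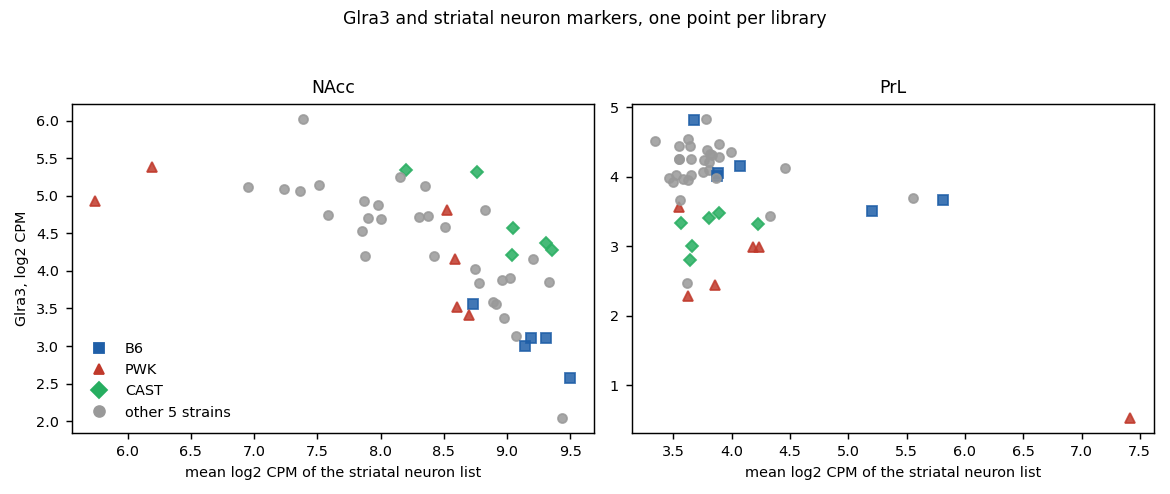
Log2 CPM of Glra3 (y axis) against the mean log2 CPM of the 8 striatal markers (x axis), 1 point per library, before strain, sex and tray were fitted, with B6, PWK and CAST marked. NAcc libraries with more striatal message have less Glra3, and in the PrL the PWK library at 1.42 CPM of Glra3 has the highest striatal mean.

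Marker levels differed between the strains compared as well. In the NAcc, the striatal sum of B6 had a median of 6504 CPM (4454 to 8020 CPM, with Ppp1r1b the most abundant gene), and the medians of the other strains ran from 2735 to 6164 CPM. The sum of 5 markers of diencephalic and brainstem neurons, which include Slc6a5, was 31.9 to 40.3 CPM in B6 (median 34.4 CPM, led by Prox1), and the medians of the other strains ran from 37.8 to 106 CPM. Of 7 striatal markers tested, 2 were called higher in B6 than in Low_Average in the NAcc, and the 4 diencephalic markers tested had a median log2 fold change of -1.80. Of these 4, limma called 0 (1 at an unadjusted p under 0.05), and edgeR and DESeq2 called 3 each. Of 4 pallial markers, 2 were called higher in B6 (median log2 fold change 1.87), and the pallial sum of B6 had a median of 146 CPM (7.12 to 558 CPM), against medians of 10.9 to 29.2 CPM in the other strains. Of 5 amygdala markers, 1 was called lower in B6 (median log2 fold change -0.62). Their mean log2 CPM averaged 5.04 in B6 and 5.41 to 5.95 in the other strains. Of all genes, limma called 17.3% higher and 14.9% lower in B6 in the NAcc. Beside these shares, 1 of 4 astrocyte, 1 of 3 GABAergic neuron and 1 of 4 microglia markers were called lower in B6. The part of these cell types in the result was not tested beyond the fit that follows. That fit does not include the amygdala, astrocyte, GABAergic neuron or microglia lists. With the striatal, pallial and diencephalic marker means as covariates, a fit chosen after seeing the data, the contrast of B6 with Low_Average in the NAcc was -0.83 for Glra3 (adjusted p = 0.0141), -0.45 for Glra2 (adjusted p = 0.0135) and 0.09 for Gphn (adjusted p = 0.152). Thus Glra2 and Glra3 kept their call at a smaller size, and Gphn lost it.

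In the PrL, PWK mouse 40 had the lowest Glra3 (1.42 CPM) and a striatal sum of 1961 CPM, whereas the other 5 PWK libraries had sums of 185 to 232 CPM. B6 mice 25 and 33 had sums of 652 and 466 CPM in the PrL, and the other B6 libraries 188 to 226 CPM. Of 7 striatal markers, 4 were called higher in PWK than in Low_Average in the PrL, and 2 in B6. Of 4 pallial markers, 3 were called lower in B6. Of all genes, 23.9% were called higher in PWK in the PrL, and 18.2% higher and 19.3% lower in B6. Of 5 amygdala markers, 3 were called higher and 1 lower in B6 in the PrL (median log2 fold change 0.55), and of 2 oligodendrocyte markers 1 was called higher (median 0.69). The part of these cell types in the levels of Glra2 and Glra3 was not tested beyond the covariates, which do not include the amygdala and oligodendrocyte lists. With the marker covariates, the PrL contrast was -1.37 for Glra3 in PWK (adjusted p = 1.29e-07) and 0.81 for Glra2 in B6 (adjusted p = 9.23e-05). Glra3 and Glra2 were thus called in these contrasts with and without the covariates.

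No member was called between males and females. By limma, 0 of 5 members were called in each region, beside 0.135%, 0.0812% and 0.0947% of all genes in the CeA, NAcc and PrL. At an unadjusted p under 0.05 there were 0, 0 and 1 members by limma, and edgeR and DESeq2 called 0 members in each region. Glra2 lies on the X chromosome, and its level was 44.4 ± 11.1 CPM in females and 47.2 ± 13.8 CPM in males in the CeA (SD, n = 24 each), and 24.4 ± 10.6 CPM and 26.1 ± 9.55 CPM in the PrL.

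Genes that act with glycine receptors and gephyrin were taken from a list of 25, of which 23 were tested. Slc6a5, the neuronal glycine transporter GlyT2, which marks glycinergic neurons, averaged 0.160, 0.137 and 0.184 CPM in the CeA, NAcc and PrL, with no count in 6, 7 and 3 libraries, and was not tested. Slc6a9, the glycine transporter GlyT1, averaged 68.3 CPM in the CeA, 88.9 CPM in the NAcc and 41.0 CPM in the PrL. Slc6a9 was lower in the PrL than in the CeA by -0.69 (SE 0.09, adjusted p = 5.98e-12) on the log2 scale. Slc32a1, the vesicular transporter that loads GABA and glycine, had the same order of regions, with 339 CPM in the NAcc, 233 CPM in the CeA and 80.4 CPM in the PrL. Slc7a10, a transporter of small neutral amino acids including glycine, was at 45.2, 39.9 and 33.0 CPM in the NAcc, CeA and PrL. For these 3 transporters the PrL was lowest and the NAcc highest, and each of their 9 region contrasts passed the test, of 15, 12 and 21 of 23 list genes called for the NAcc against the CeA, the PrL against the CeA and the PrL against the NAcc, beside 69.8%, 74.4% and 82.8% of all genes.

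Of the 23 genes, 19 differed among strains in each region, beside the 80.8%, 76.0% and 84.1% of all genes. Gcsh, a carrier protein of the glycine cleavage system, was a unique DEG of CAST with lower expression in the CeA, NAcc and PrL (mean log2 fold change -0.86, -1.11 and -0.93). Xdh, xanthine dehydrogenase, an enzyme that needs the molybdenum cofactor made with the help of gephyrin, was a unique DEG of CAST with higher expression in the 3 regions (1.11, 1.04 and 0.96). Amt, the aminomethyltransferase of the cleavage system, was a unique DEG of PWK with lower expression in the CeA and PrL (-0.62 and -0.89). Shmt1, a serine hydroxymethyltransferase that makes glycine, was a unique DEG of CAST with higher expression in the CeA and PrL (1.09 and 0.89), and Gldc, the glycine decarboxylase, one of PWK with higher expression in the CeA (0.73). The other unique DEGs of the list had means below 0.5 in size. The part of alignment to a shared reference in these differences of CAST and PWK was not tested.

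In B6 against Low_Average, 10, 9 and 8 of the 23 genes were called in the CeA, NAcc and PrL (4 higher and 6 lower, 4 and 5, and 4 and 4), beside 41.0%, 32.2% and 37.6% of all genes. The largest changes in each region were in Shmt1 (-0.70, -0.92 and -0.75; adjusted p = 0.00146, 8.86e-05 and 0.000923), apart from the NAcc, where Gldc was higher by 0.95 (adjusted p = 0.000194). Low_Average includes CAST, in which Shmt1 was a unique DEG with higher expression in the CeA and PrL. Slc6a9 was higher in B6 in the CeA (0.43, adjusted p = 0.0449) and lower in the NAcc (-0.64, adjusted p = 0.0421). Slitrk3, an adhesion protein of inhibitory synapses, was lower in the CeA (-0.43, adjusted p = 0.000428). In the PrL, Gldc was higher by 0.27 (adjusted p = 0.0184) and Slc7a10 was lower (-0.20, adjusted p = 0.0264), as it was in the NAcc (-0.58, adjusted p = 0.00916).

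In PWK against Low_Average, 10, 11 and 13 of the 23 genes were called (7 higher and 3 lower, 7 and 4, and 9 and 4), beside 39.2%, 38.7% and 47.1% of all genes. Gldc was higher in the CeA, NAcc and PrL (0.79, 0.75 and 0.64; adjusted p = 6.59e-10, 0.00137 and 2.66e-07). Amt was lower (-0.62, -0.53 and -0.90; adjusted p = 3.14e-08, 0.00017 and 4.72e-12), and so was Xdh (-0.48, -0.79 and -0.66; adjusted p = 0.0194, 8.35e-05 and 0.0017). Low_Average includes CAST, in which Xdh was a unique DEG with higher expression in each region, so that CAST raises this mean. Slc7a10 was higher in PWK in the CeA, NAcc and PrL (0.40, 0.48 and 0.27; adjusted p = 0.0164, 0.0105 and 0.00255), and Slc32a1 was lower in the NAcc (-0.20, adjusted p = 0.0395). Of the 9 partners of gephyrin at inhibitory synapses, limma called 1 in the CeA, 0 in the NAcc (1 at an unadjusted p under 0.05, with 0 called by edgeR and 1 by DESeq2) and 5 in the PrL, beside the same shares of all genes.

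The genes most like each member were those with the highest Pearson's r over the 24 means of strain and region, after the mean of each region was taken out. The means of a strain share mice and libraries across genes, and r is given as a description. For Glra3 they were AW551984 (0.85), Tekt4 (0.847) and Smpd2 (0.812), and for Glra2 Zcchc12 (0.806), H13 (0.8) and Gkap1 (0.791). For Glra1 they were Ubash3b (0.854), Sparc (0.837) and Usp29 (0.824). For Glrb they were Gdap1 (0.921), Slc25a17 (0.826) and Phykpl (0.824), and for Gphn Plcb1 (0.864), Calm2 (0.852) and Ddx5 (0.813).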

How the data were processed

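RNA was measured in the CeA, NAcc and PrL of 48 mice by stranded, paired-end poly(A) sequencing. Per the submitters' processing notes, FastQC, Trimmomatic and STAR 2.7.3a were used, and the authors aligned reads to GRCm39 (Ensembl release 105) and counted them per gene with STAR. The deposited counts are whole and not normalized, with 55414 genes in 240 libraries and runs. The deposited log2 values are log2 CPM that the authors normalized by TMM for 14785 genes and 143 libraries (edgeR 3.38.1, limma 3.52.2). They cover tray 1, run 1 for tray 2 and run 2 for tray 3, without the NAcc of B6 mouse 1. Values recomputed from the counts were within 5e-06 of them, so the counts of the same genes and libraries were tested. These genes held 87.4% of a library's counts (median).

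Strain, sex, region, mouse and tray came from the labels. In each region, voom (prior count 0.5) and limma's moderated test were used with strain, sex and tray as terms, with TMM factors over the 143 libraries (R 4.3.3, limma 3.58.1, edgeR 4.0.16). P-values were adjusted by Benjamini-Hochberg over all genes, with a threshold of 0.05: over the 28 contrasts of strains together, over B6 and PWK against Low_Average together, and singly for the F test over strains and for sex. Regions and the strain by region interaction were tested together, in a single model of the 143 libraries that took mouse as a block. The pairing of regions comes from the mouse numbers of the labels. With strain, sex and tray fitted, libraries of 1 mouse correlated at a median over genes of 0.0552 for CeA with NAcc, 0.0257 for CeA with PrL and 0.00961 for NAcc with PrL, against -0.000264, 0.00239 and 0.000204 between mice. The tests were tried on simulated counts. A count of 0 was taken to allow up to 3 counts, which covers counting error only. The relation of Glra3 with the mean of the striatal list was tested in the 3 regions with 100000 permutations of residuals, two-sided. Correlations were also computed for the other members and marker lists, and the adjustment over 3 relations does not cover the choice among them.

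The members and lists were chosen with earlier results of these data known. The members were always named, and so were Glra4, Slc6a5, Slc6a9, Slc32a1 and Slc7a10, while 1 further gene of this rule is not reported here; of the list of 25 genes, the 3 with the largest called change in each contrast with Low_Average were named, and the 3 genes most like each member. The unique DEGs of the list with a mean over 0.5 in size were named after their values were seen. So were the amygdala, astrocyte, GABAergic neuron and microglia markers. Libraries more than 3 SD from the others of their region in a marker list were left out in an alternative chosen after seeing the data, as were the marker covariates. DESeq2 1.42.0, edgeR's quasi-likelihood test, other scalings and filters, sample weights, single trays, other runs and left-out libraries were further alternatives. The reference annotation was of an older build and served for exon lengths by gene identifier, so no coordinates or sequences are given. On the opposite strand, exons of Gm12236 shared 141 bases with Glra1 and those of Gm48226 147 bases with Gphn. With 17 counts against 5993 for Glra1 and 13907 against 268413 for Gphn over the 143 libraries, such overlap is small for Glra1, and the kit marks strand.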

Additional observations from a re-analysis of the deposited data

Results flagged for a closer look

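In 4 of 120 groups of a gene, strain and region, 1 library stood far from the others of its group by Dixon's criterion; chance alone flags about 1 in 20 groups. Glra2 in the PrL of S129 was at 7.95 CPM in mouse 46, and the other 5 libraries were at 14.6 to 20.9 CPM. Glra3 in the CeA of NZO was at 64 CPM in mouse 34 (29.7 to 36.8 CPM in the others), and Glra3 in the NAcc of NZO was at 4.1 CPM in mouse 26 (16.3 to 35.4 CPM in the others). Gphn in the NAcc of S129 was at 76.9 CPM in mouse 14 (92.4 to 102 CPM in the others).

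The differences among strains depended on the region for Glra2 (adjusted p = 1.25e-05) and Glra3 (adjusted p = 3.38e-06) by the interaction test of limma. For Glra2 the contrast of B6 with Low_Average was higher in the PrL and lower in the NAcc, and for Glra3 PWK was lower in the PrL.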

How the results depend on the processing

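Glra3 of PWK in the PrL kept its direction in 22 of 22 alternatives (-2.37 to -0.92) and its call in 20, and Glra2 of B6 in the PrL in 22 (0.76 to 1.21) and 21. Between the runs of 1 library, log2 CPM of Glra1 differed by 0.247 (tray 2) and 0.524 (tray 3) in the median. The other members differed by 0.0249 to 0.0985, and the part of depth was not tested. For 21 further contrasts with Low_Average that were not called, 31 of 367 alternative values changed sign and 6 passed the threshold, all 6 without a change of sign. All members were in the deposited log2 table, so the separate test of low genes was not run.

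In the NAcc, edgeR's quasi-likelihood test called 33 contrasts of strains, DESeq2 37 and sample weights 51, against 21, and both count tools called 1 member in PWK in the PrL, against 2. The same count was 1 with a mean CPM of at least 5 (Glra1 was not tested), with the other runs and with the runs summed. Glra1 was the member lost with edgeR, DESeq2, the other runs and the runs summed. Sample weights called 38 contrasts in the CeA (against 21), 1 member for B6 and 1 for PWK in the CeA (against 0), 4 members between the NAcc and CeA (against 2) and 5 in the interaction (against 2), and turned Glra3 of PWK in the CeA to 0.093.

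With 1 tray, and 2 libraries or fewer of a strain in a region, the F test over strains called 0, 0 and 2 members in the CeA, NAcc and PrL in tray 1, 0, 0 and 1 in tray 2, and 0, 0 and 1 in tray 3, and 0, 0 and 16, 2, 0 and 4, and 0, 4 and 5 contrasts of strains. For B6 in the NAcc, 0 members were called in trays 1 and 2, and 0 in the PrL in tray 2. For PWK in the PrL, 0 were called in trays 2 and 3. The interaction called 0 in each tray, and 1 member was called between the NAcc and CeA in trays 1 and 2. Fewer libraries were tested in these fits. Signs turned for values that were not called: Glra3 of PWK in the NAcc to 0.0565 with the other runs, 0.29 in tray 1, 0.37 in tray 2 and 0.067 without the marker outlier libraries, and in the CeA to 0.32 in tray 2; Glra2 of B6 in the CeA to -0.13 in tray 1; and, for the NAcc against the CeA, Glra1 to 0.65 in tray 1 and to 0.01 (0.0067) with edgeR without the mouse block, and Gphn to 0.0158 in tray 3. The cause was not tested.

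With the marker covariates 1 member was called for PWK in the NAcc (against 0), which was Glra3 (-0.54, adjusted p = 0.0153), and without the marker outlier libraries 1 was called for B6 in the CeA (against 0), which was Gphn. With each B6 library of the NAcc left out in turn, 3 to 3 members passed the F test, 20 to 22 contrasts of strains were called, 3 to 3 members were called for B6 and 0 to 0 for PWK and sex. With mouse as a fixed replicate block, the interaction of Glra1 passed (adjusted p = 0.018, against 0.0592); the block, fixed or left out, changed no other call of limma.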
